A study of Mus musculus with 9 samples.

Results

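The mitochondrial ribosomal proteins of mouse mammary fibroblasts are described here through the 69 genes of the normalised count table whose name starts with Mrpl or Mrps followed by a digit, out of 11931 genes in all. The name rule used no measured value. It took 44 genes of the large subunit, 24 of the small subunit and Mrps36, whose product was named as a ribosomal protein but is now known as a subunit of the 2-oxoglutarate dehydrogenase complex. Mrps18a and Mrps30 carry small-subunit names, but their products sit in the large subunit and are counted there. All but Mrpl1 and Mrpl15 reached a normalised count of 5 in at least 3 libraries, so 67 of these genes were tested among 10639. In the whole-read counts behind the table, Mrpl1 had 5 reads in 5-day co-cultures, 1 in 3-day co-cultures and 22 in monocultures over 3 libraries each, and Mrpl15 had 8, 3 and 12 in the same order.

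The cells were normal mammary fibroblasts from the fat pad of 12-week-old female BALB/c mice, plated on collagen for 1 week before use, and the study asked how they change beside carcinoma cells. In 5-day and 3-day co-cultures, 300000 fibroblasts received 100000 4T1-GFP cells 24 h after plating, 4T1 being a mouse mammary carcinoma line and GFP the green fluorescent protein that marks it. Monocultures held fibroblasts alone for 5 days. In all 3 groups, cells were sorted as lacking GFP and carrying podoplanin (PDPN), and 3′ end mRNA libraries were made, with 3 libraries per group. There was no 3-day monoculture, so at 3 days the number of days and the presence of carcinoma cells cannot be told apart. The labels do not say whether replicates were separate cultures or animals, and p-values measure only the spread between these libraries. The column used as the second 5-day co-culture is named for repetition 2 and 5 days but, unlike the other co-culture columns, does not name the carcinoma cells. It was matched to that sample because the monoculture of repetition 2 has a column of its own.

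Mitochondria keep a small genome that encodes core subunits of the respiratory chain and ATP synthase, and a ribosome of their own translates it at the inner membrane. The ribosomal RNAs of this machine come from mitochondrial DNA, whereas all of its proteins are made from nuclear genes in the cytosol and imported. Some of the proteins have bacterial relatives, and others are found in mitochondria alone, many of them on the surface of the particle. Loss of many of these proteins impairs assembly of the respiratory chain. Genes for mitochondrial proteins are classical targets of the nuclear respiratory factor NRF1 and of GABP, whose DNA-binding subunit belongs to the ETS family.

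Reads assigned to genes numbered 1459381 to 1987168 in 5-day co-cultures, 1048471 to 2579766 in 3-day co-cultures and 2623911 to 3567326 in monocultures. The fibroblast label was checked on 11 marker genes, all detected, whose summed normalised count was 38959 to 53380.4 in 5-day co-cultures, 43641 to 54929 in 3-day co-cultures and 43984 to 61342 in monocultures. Of these, Vim was higher and Pdgfra, Thy1, Col3a1, Pdgfrb and Dcn were lower in 5-day co-cultures than in monocultures, and 4 were lower at 3 days (limma, adjusted p under 0.05). Markers of epithelial and carcinoma cells moved with co-culture: 18 of 21 were in the table, and 13 of the 15 tested were higher than in monocultures at both times. Their summed normalised count was 1109 to 1554 in 5-day co-cultures, 1133 to 1289.7 in 3-day co-cultures and 62.3 to 84.6 in monocultures, where Cldn3, Elf3 and Grhl2 were at 0 in every library. The summed count of 8 immune markers was 73.5 to 161 in 5-day co-cultures, 128 to 377 in 3-day co-cultures and 99.6 to 291 in monocultures, that of 2 endothelial markers was 27.0 to 30.7, 34.7 to 41.7 and 25.5 to 28.3, and that of 4 pericyte markers was 166 to 217.5, 134 to 178 and 45.2 to 87.3, in the same order of groups. The part of RNA from such cells in the results below was not tested. In bulk samples fewer cells of a type and less RNA per cell cannot be told apart.

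The upstream sequences of 3 genes that rose together at 5 days are shown because nuclear factors that bind such sequences are the textbook route by which these genes are regulated. They are the gene with the largest rise, Mrpl12, and the pair of risen genes, Mrps22 and Mrpl52, that held the ETS motif in a window free of any exon of another gene. The sequences are from RefSeq on GRCm38.p6, 5′ to 3′ on the gene's strand, ending at the base before the RefSeq transcription start. For Mrpl12 the sequence was cut before the gene start of the GENCODE M21 annotation, which lies upstream of the RefSeq start. Capitals mark a match to the ETS motif CCGGAAG or its reverse complement CTTCCGG. Mrpl12, chr11:120484387-120484612 on the plus strand, has no capitals because none of the NRF1, ETS and YY1 motifs searched was found.
Mrpl12: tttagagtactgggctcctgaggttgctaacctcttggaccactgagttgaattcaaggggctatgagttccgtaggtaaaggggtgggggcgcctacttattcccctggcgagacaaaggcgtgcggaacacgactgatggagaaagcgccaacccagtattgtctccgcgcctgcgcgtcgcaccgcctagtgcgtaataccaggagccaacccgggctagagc
Mrps22, chr9:98601680-98601929 on the minus strand, holds CCGGAAG 11 bases before the start.
Mrps22: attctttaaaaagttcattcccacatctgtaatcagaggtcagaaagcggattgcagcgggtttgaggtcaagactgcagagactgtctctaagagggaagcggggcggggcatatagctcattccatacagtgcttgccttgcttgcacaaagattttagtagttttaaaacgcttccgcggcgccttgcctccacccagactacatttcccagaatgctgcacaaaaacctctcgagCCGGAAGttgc
Mrpl52, chr14:54426659-54426908 on the plus strand, holds the reverse complement 47 bases before the start.
Mrpl52: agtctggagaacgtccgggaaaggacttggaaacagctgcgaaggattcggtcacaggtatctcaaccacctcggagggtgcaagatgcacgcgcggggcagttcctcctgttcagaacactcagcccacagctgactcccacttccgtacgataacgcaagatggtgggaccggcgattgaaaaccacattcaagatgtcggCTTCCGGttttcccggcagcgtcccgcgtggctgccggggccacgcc
Promoter sequence was at hand for 61 of the 69 genes. On either strand of the 250 bases before the RefSeq start, 26.2% of them held the ETS motif, 9.84% held GCATGCGC for NRF1, 3.28% held AAGATGGCG for YY1 and 49.2% held GGGCGG for SP1. Among the 8122 tested genes of the table with a promoter, the shares were 16.6%, 5.17%, 1.51% and 66.3% in the same order of motifs. Among the 10 genes that rose at 5 days and had a promoter, 4 held the ETS motif, namely Mrps22, Mrpl52, Mrpl43 and Mrpl53, and 0 held the NRF1 or YY1 motif. Both matches of Mrpl53, 59 and 16 bases before its RefSeq start, lie inside the gene as placed by the GENCODE M21 annotation. The 4 motifs share no full match with each other, matches are descriptions of letters and not of bound sites, and a window without a match says nothing about a factor.

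After 5 days of co-culture, 11 of the 67 tested genes were higher than in monoculture and 0 were lower (limma, adjusted p under 0.05), against 24.0% of all tested genes called in either direction, 12.6% higher and 11.4% lower. The 11 higher genes were 16.4% of those tested, near the 12.6% of all genes. At an unadjusted p under 0.05, 20 were higher and 2 lower, against 18.4% and 17.1% of all tested genes. edgeR on the whole reads called 12 higher and 0 lower, and DESeq2 called 12 higher and 1 lower. The median log2 fold change was 0.31, with quartiles at 0.03 and 0.47, while the median of all tested genes was -0.01, and 51 of the 67 values were above 0. Every 5-day library lay above every monoculture library for 26 of the genes, against 20.8% of all tested genes, and every one lay below for 4, against 20.1%. All log2 fold changes are on the log2(normalised count + 1) scale and understate the change of genes with low counts.

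**Figure D1:**
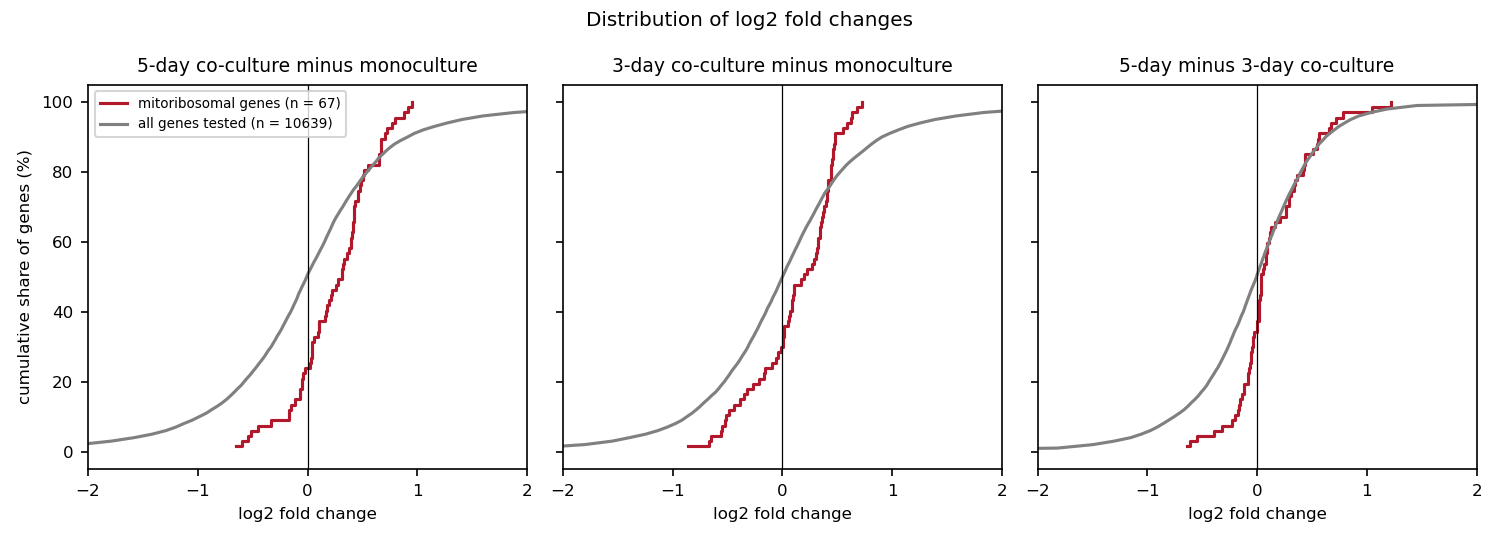
Cumulative share of genes (vertical axis, percent) against the log2 fold change (horizontal axis) for the 67 tested mitochondrial ribosomal protein genes in red and all 10639 tested genes in grey, in 5-day co-culture minus monoculture, 3-day co-culture minus monoculture and 5-day minus 3-day co-culture. The red curve lies to the right of the grey one over most of its range in the first panel, with a median of 0.31 against -0.01, and stops short of the large rises of other genes, since its highest value is 0.95.

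The share of all reads that fell on the 69 genes gives the same groups without a test per gene. It was 0.760%, 0.763% and 0.671% in 5-day co-cultures, 0.622%, 0.688% and 0.644% in 3-day co-cultures and 0.600%, 0.629% and 0.631% in monocultures. Each 5-day library lay above each monoculture, and the 3-day libraries overlapped both other groups. The 95% Wilson interval, which covers counting error only, was 0.658% to 0.685% for the third 5-day library and 0.608% to 0.638% for the first 3-day library, the shallowest of all. The means were 0.732% ± 0.052 at 5 days, 0.651% ± 0.033 at 3 days and 0.620% ± 0.018 in monocultures (SD, n = 3). Mrpl52 alone took 12.1% of these reads at 5 days, 11.8% at 3 days and 9.6% in monocultures, and without it the shares were 0.644% ± 0.043, 0.577% ± 0.022 and 0.561% ± 0.017.

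Among genes of the large subunit, 9 of 42 were higher at 5 days and 0 lower, with a median log2 fold change of 0.32, and in the small subunit 2 of 24 were higher and 0 lower, with a median of 0.27. The shares over all tested genes were 12.6% higher and 11.4% lower. Within the large subunit, 6 of 18 genes found in mitochondria alone rose (median 0.42), and 3 of 24 with bacterial relatives rose (median 0.22). In the small subunit the counts were 1 of 8 (median 0.18) and 1 of 16 (median 0.27). The classes are those of the lists used here. They count Mrpl55 among genes with bacterial relatives, and Mrps18a, a relative of a bacterial small-subunit protein, among those found in mitochondria alone. The difference between these classes was not tested.

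Large-subunit genes with bacterial relatives included the steepest rise. Mrpl12 encodes the flexible stalk protein of the large subunit that recruits translation factors, and lies on chromosome 11 (mm10, GENCODE M21, 120484613 to 120489065, plus strand). Its normalised count was 401, 360.4 and 258 in 5-day co-cultures, 231, 255 and 218 in 3-day co-cultures and 171, 177 and 168 in monocultures. The 3 groups did not overlap, with 5-day co-cultures highest and monocultures lowest, and the first 5-day library stood highest of all. The log2 fold change at 5 days was 0.95 ± 0.19 (SE, limma adjusted p = 0.00138), a fold of 1.94 between group means taken on the log2 scale. Mrpl13, the relative of a bacterial protein that acts early in large-subunit assembly, measured 359, 414 and 393 in 5-day co-cultures, 311, 398 and 372 in 3-day co-cultures and 199, 255 and 264 in monocultures. Both co-culture groups lay wholly above monocultures. Its rise at 5 days was 0.71 ± 0.18 (limma adjusted p = 0.00823). Mrpl55, counted in the same class, read 207, 235 and 181 at 5 days, 153, 173 and 192 at 3 days and 119, 141 and 116 in monocultures, with no overlap between either co-culture group and monocultures. The 5-day change was 0.72 ± 0.18 (limma adjusted p = 0.00914).

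Of the 4 tested stalk genes, Mrpl12 and Mrpl53 rose and Mrpl10 and Mrpl54 did not pass. Mrpl53, a protein of the stalk base found in mitochondria alone, had 639.7, 537 and 378 in 5-day co-cultures, 302, 475 and 365 in 3-day co-cultures and 238, 286 and 282 in monocultures. All co-culture libraries stood above all monocultures, and the co-culture groups overlapped each other. At 5 days the log2 fold change was 0.92 ± 0.21 (limma adjusted p = 0.00535), and at 3 days it was 0.48 ± 0.21 (adjusted p = 0.131). Mrpl10, which anchors the stalk proteins, read 227, 193 and 164 at 5 days, 231, 169 and 160.0 at 3 days and 205, 166 and 188 in monocultures, and its groups overlapped throughout. Mrpl53 overlaps Gm42688 on its own strand and Ccdc142os on the other, and Mrpl12 overlaps Gm16755 on the other strand, and the strand setting of the counting is not given in the sources used here, so reads of such partners cannot be told apart.

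**Figure D2:**
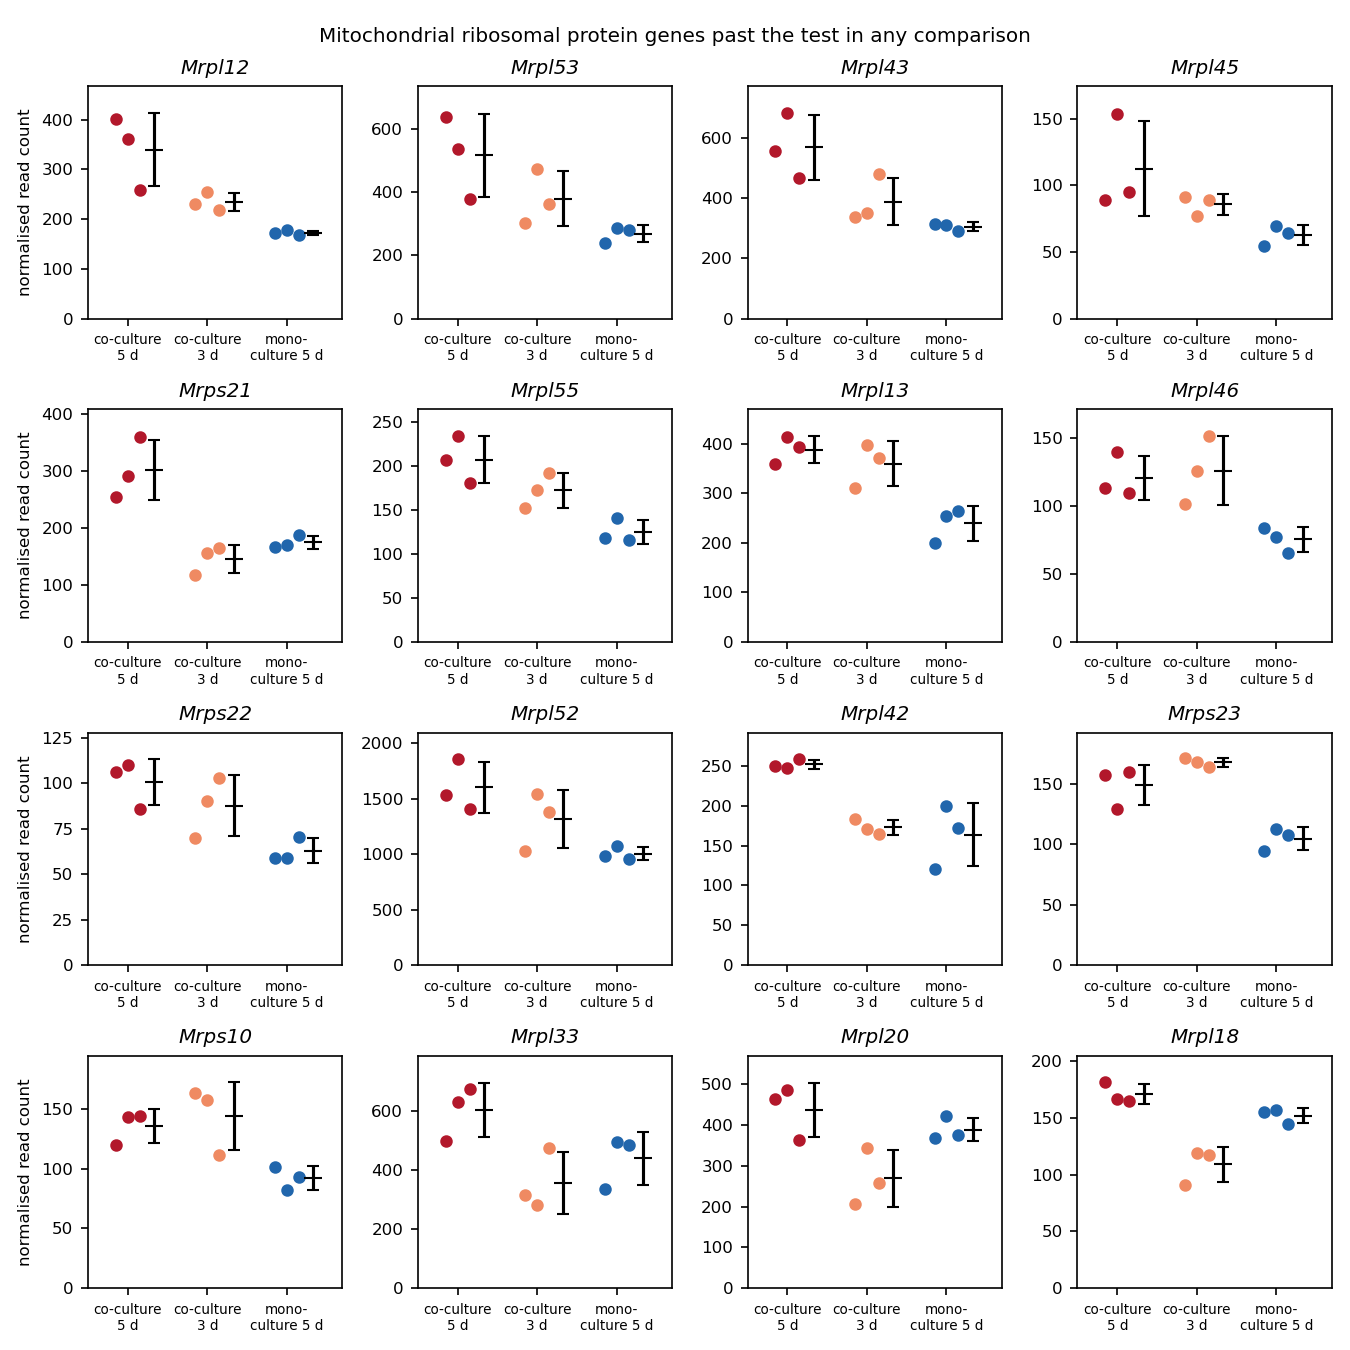
Normalised read count (vertical axis, from 0) in each library for the 16 genes that passed the test in any comparison, with 5-day co-cultures in red, 3-day co-cultures in orange and monocultures in blue; each point is a library, and the bar gives the mean ± SD (n = 3). In Mrpl12 the 5-day libraries lie between 258 and 401 and the monocultures between 168 and 177, whereas in Mrps21, Mrpl33, Mrpl20 and Mrpl18 the 3-day libraries are the lowest on average.

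The other 5 rises of the large subunit were of genes found in mitochondria alone. Mrpl43 had 559, 684 and 467 in 5-day co-cultures, 337, 349.5 and 480.0 in 3-day co-cultures and 315, 313 and 289.9 in monocultures; every co-culture library was above every monoculture, and the second 5-day library was highest. Its log2 fold change was 0.88 ± 0.19 (limma adjusted p = 0.00301). Mrpl43 lies on chromosome 19 beside Twnk, the mitochondrial DNA helicase gene, which it overlaps on the opposite strand. Mrpl45, which sits at the mouth of the exit tunnel and holds the ribosome to the inner membrane, had 88.9, 154 and 94.9 at 5 days, 91.3, 76.6 and 89.0 at 3 days and 54.5, 69.7 and 64.3 in monocultures. Again the co-culture libraries were all above the monocultures, but the second 5-day library stood far above the rest. The change was 0.79 ± 0.23 (limma adjusted p = 0.0185). It was the only called gene of 5 tested on the exit tunnel and membrane side, whose median was 0.31.

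Mrpl52, the gene with the most reads in the family, had 1536, 1862 and 1409.5 in 5-day co-cultures, 1028, 1541 and 1384 in 3-day co-cultures and 979.7, 1071 and 959.6 in monocultures. Its 5-day libraries were all above the monocultures, and the first 3-day library fell among the monocultures. The change at 5 days was 0.67 ± 0.19 (limma adjusted p = 0.0153). Mrpl42 read 249.8, 248 and 258 at 5 days, 183, 171 and 164 at 3 days and 121, 199 and 172 in monocultures. Its 5-day libraries lay in a narrow band above both other groups, which overlapped each other. The log2 fold change was 0.65 ± 0.19 (limma adjusted p = 0.0223). Neither of these genes overlaps another gene in the annotation.

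Mrpl46, a protein of the central protuberance, the crown of the large subunit that faces the small one, was called at both times. It measured 113, 139.7 and 109.9 in 5-day co-cultures, 101, 126 and 152 in 3-day co-cultures and 83.6, 77.4 and 65.6 in monocultures. Every co-culture library stood above every monoculture, and the co-culture groups overlapped. The log2 fold change was 0.67 ± 0.21 at 5 days (limma adjusted p = 0.0264) and 0.72 ± 0.21 at 3 days (adjusted p = 0.0213). Mrpl46 starts head to head with Mrps11, a small-subunit gene on the other strand of chromosome 7, and the annotated genes overlap. Mrps11 had 119.5, 87.5 and 84.9 at 5 days, 109.6, 58.5 and 55.7 at 3 days and 102, 101 and 109.9 in monocultures, so its groups overlapped, and it gave -0.12 ± 0.25 at 5 days and -0.55 ± 0.25 at 3 days, with adjusted p of 0.79 and 0.14 (limma). Without the first 3-day library Mrps11 gave -0.86 at 3 days and was called lower (limma adjusted p = 0.014, over all alternatives 0.014 to 0.377). The other central protuberance genes, Mrpl18, Mrpl38, Mrpl40 and Mrpl48, did not pass against monoculture.

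In the small subunit, Mrps21 and Mrps22 rose at 5 days. Mrps21, the relative of a bacterial protein near the site where messenger RNA leaves the small subunit, had 255, 292 and 359.5 in 5-day co-cultures, 118, 156 and 164 in 3-day co-cultures and 167, 170.2 and 188 in monocultures. The 3 groups did not overlap: 5-day co-cultures were highest, monocultures came next and 3-day co-cultures were lowest. The 5-day change was 0.77 ± 0.19 (limma adjusted p = 0.00777), and the 3-day change was -0.27 ± 0.19 (adjusted p = 0.35). Mrps22, a mitochondria-specific protein whose mutation in people causes deficiency of the respiratory chain, had 106, 109.9 and 86.1 at 5 days, 69.7, 90.5 and 103 at 3 days and 58.8, 59.1 and 70.7 in monocultures. Its 5-day libraries were all above the monocultures, and the first 3-day library overlapped them. The change was 0.67 ± 0.21 (limma adjusted p = 0.03).

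The largest declines at 5 days were in the small subunit, and none passed. Mrps26 had 155, 123 and 151 in 5-day co-cultures, 213, 144 and 90.4 in 3-day co-cultures and 189, 259 and 229 in monocultures. All 5-day libraries were below all monocultures, and the 3-day libraries ran from below the 5-day values to among the monocultures. The log2 fold change was -0.65 ± 0.26 (limma adjusted p = 0.0781). Mrps27, a protein with RNA-binding helical repeats, gave -0.59 ± 0.29 (adjusted p = 0.154), and Mrps28 gave -0.54 ± 0.26 (adjusted p = 0.147). Mrps24, at the entry of the messenger RNA channel, had 237, 203 and 242 at 5 days, 256, 278 and 189 at 3 days and 286, 330.2 and 316 in monocultures. Both co-culture groups lay below the monocultures for Mrps24, with -0.45 ± 0.18 at 5 days (limma adjusted p = 0.0893), and 0 of 4 genes of the messenger RNA channel and decoding site were called in any comparison.

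Mammals have 3 relatives of the bacterial S18 protein. Mrps18b is not analysed here. Mrps18a, placed in the large subunit, read 165, 160.2 and 146 at 5 days, 181, 143 and 127 at 3 days and 130.0, 138 and 149.8 in monocultures, and Mrps18c, placed in the small subunit, read 55.7, 68.9 and 61.2, 51.5, 79.4 and 55.7 and 48.9, 49.0 and 50.1 in the same groups. The 5-day libraries of Mrps18c were all above its monocultures, whose values were close together, and those of Mrps18a overlapped. The log2 fold changes at 5 days were 0.18 ± 0.19 for Mrps18a and 0.32 ± 0.22 for Mrps18c (limma adjusted p = 0.547 and 0.336). Mrps36, the gene with a ribosomal name and a different function, had 12.6, 8.4 and 18.7, 14.9, 10.4 and 12.5 and 11.8, 7.2 and 9.0, overlapping in all groups, and did not pass.

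Mrpl12, Mrpl53, Mrpl43, Mrps21, Mrpl55 and Mrpl13 kept their 5-day call in all 22 alternative settings. With every library thinned to the depth of the shallowest, 7 genes were higher, 1 was lower and the median was 0.19, and without the second 5-day library 7 were higher. Without that library 5 calls were lost, at a limma adjusted p of 0.112 for Mrpl45, 0.112 for Mrpl46, 0.105 for Mrps22, 0.0785 for Mrpl52 and 0.0544 for Mrpl42. Without the first monoculture Mrpl45 (0.0703), Mrps22 (0.0891) and Mrpl42 (0.13) lost theirs, without the second Mrpl46 (0.0568) and Mrps22 (0.0896), and without the third Mrpl46 (0.112) and Mrpl52 (0.0556). Without the first 5-day library Mrps22 (0.0875) and Mrpl42 (0.0546) were lost, and Mrpl42 also without the third (0.0576). Thinning also cost the calls of Mrpl45 (0.058), Mrps22 (0.181), Mrpl52 (0.0543) and Mrpl42 (0.0768). Over all alternatives the limma adjusted p ranged up to 0.112 for Mrpl45 and Mrpl46, 0.181 for Mrps22, 0.0785 for Mrpl52 and 0.13 for Mrpl42. Mrps26 was called lower in 5 alternatives, among them without the first (0.0351) or the third (0.0254) 3-day library, and Mrps28 without the third 5-day library (0.028). Mrps24 was called lower at 5 days in 2 of the 22 alternatives, with a lowest adjusted p of 0.0401.

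**Figure D3:**
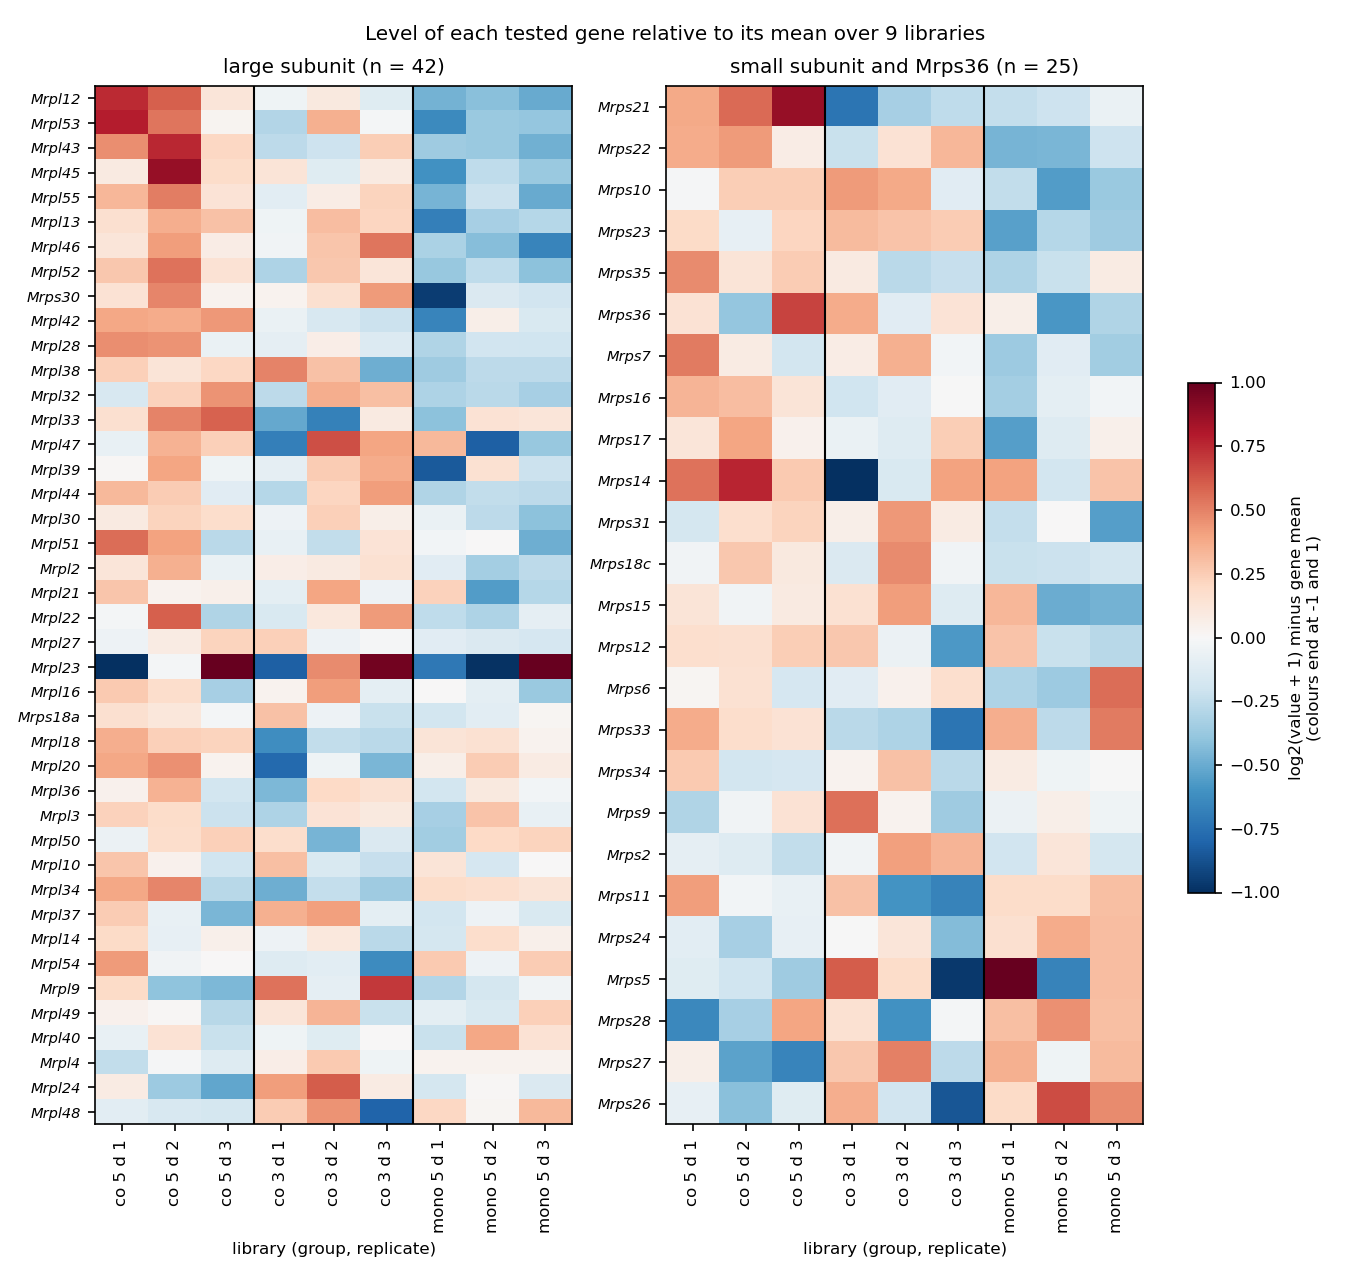
Each cell shows log2(normalised count + 1) of a tested gene in a library minus that gene's mean over 9 libraries (colour scale, ends at -1 and 1), with the large subunit on the left, the small subunit and Mrps36 on the right, and libraries in columns by group and replicate. Rows run by the 5-day change from the highest to the lowest, so that Mrpl12 and Mrps21 are at the top; the colours in the lower rows are mixed, and in Mrpl23, with 0.9 to 11.2 normalised counts per library, they follow single reads.

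After 3 days of co-culture, 4 of the 67 tested genes were higher than in monoculture and 0 lower, against 20.0% of all tested genes in either direction, 10.6% higher and 9.37% lower. At an unadjusted p under 0.05, 11 were higher and 6 lower, against 16.7% and 16.2% of all tested genes; edgeR and DESeq2 on the whole reads each called 4 higher and 0 lower. The median log2 fold change was 0.20, against 0.00 for all tested genes, and 47 values were above 0. Every 3-day library was above every monoculture for 19 genes, against 19.2% of all tested genes, and every one was below for 8, against 18.1%. The median was 0.31 in the large subunit and 0.03 in the small subunit, with 2 of 42 and 2 of 24 genes called higher.

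The 4 genes were Mrpl46 and Mrpl13 of the large subunit, whose library values are given above, and Mrps23 and Mrps10 of the small subunit. Mrpl13 rose by 0.59 ± 0.18 at 3 days (limma adjusted p = 0.0263). Mrps23, a protein found in mitochondria alone, had 157, 129.5 and 159.8 in 5-day co-cultures, 171, 168 and 164 in 3-day co-cultures and 94.1, 113 and 107 in monocultures. Its 3-day libraries were close together and above all the others, and its 5-day libraries were also above the monocultures. The log2 fold change was 0.68 ± 0.18 at 3 days (limma adjusted p = 0.0125) and 0.50 ± 0.18 at 5 days (adjusted p = 0.0508). Mrps10, with a bacterial relative in the head of the small subunit, had 119.5, 143 and 144 at 5 days, 163, 157 and 111 at 3 days and 102, 81.7 and 93.2 in monocultures. Every co-culture library was above every monoculture for Mrps10, and the third 3-day library was the lowest of the co-cultures. It gave 0.62 ± 0.20 at 3 days (limma adjusted p = 0.0383) and 0.55 ± 0.20 at 5 days (adjusted p = 0.0569). At 5 days Mrps23 was called higher without the second 5-day library (0.60, adjusted p = 0.0476) or the third 3-day library (0.049), and Mrps10 without the third 3-day library (0.0338).

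The declines at 3 days did not pass. Mrps26 gave -0.67 ± 0.26, Mrps33 gave -0.65 ± 0.34 and Mrpl20 gave -0.56 ± 0.20, with limma adjusted p of 0.078, 0.196 and 0.0592. Mrps33 rested on 16.2, 14.0 and 13.7 normalised counts at 5 days, 10.0, 9.7 and 7.0 at 3 days and 16.1, 10.1 and 18.0 in monocultures. The 3-day libraries were all below the monocultures for Mrps33 and Mrpl20, and not for Mrps26. Mrps18a and Mrps18c gave 0.10 ± 0.19 and 0.30 ± 0.22 at 3 days, neither of which passed. Without the second 3-day library, the deepest of its group, 1 gene was higher and the median was 0.12, and without the first or the third monoculture 2 genes were higher, whereas weighting libraries by their scatter gave 14 higher and 4 lower. Thinned to the depth of the shallowest library, the reads gave 2 higher, 2 lower and a median of 0.12. Mrps23 lost its call only without the first monoculture (limma adjusted p = 0.057). Mrpl46 lost its call without the second (0.0623) or the third (0.085) 3-day library or the third monoculture (0.0948), and Mrpl13 without the second (0.105) or the third (0.0641) 3-day library or the first monoculture (0.122). Mrps10 lost its call without the first (0.108) or second (0.131) 3-day library or any of the monocultures (0.051 to 0.136). Thinning also cost Mrpl13 (0.0821) and Mrps10 (0.204) their calls, and with only the compared groups Mrps10 missed the threshold (0.057). Without the first 3-day library Mrps26 (-0.96, adjusted p = 0.0107) and Mrps11 were lower, without the second Mrpl20 was (0.0237), and without the third 5-day library Mrpl34 was. Without the third 3-day library Mrps26 gave -0.35.

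Between 5 and 3 days of co-culture, 4 genes were higher and 0 lower at 5 days, against 6.91% of all tested genes in either direction, 3.20% higher and 3.71% lower. At an unadjusted p under 0.05, 10 were higher and 2 lower, against 10.9% and 11.4% of all tested genes, and on the whole reads edgeR called 2 higher and DESeq2 4, with 0 lower in both. The median log2 fold change was 0.04 (0.04 to 0.11 with 1 library left out), and 44 of 67 values were above 0. Every 5-day library was above every 3-day library for 10 genes, against 11.7% of all tested genes, and below for 2, against 12.9%. This comparison, and those with monoculture, share libraries, and their values are set side by side for the same genes and not counted as separate support.

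Among the called genes Mrps21 differed most between the co-cultures, with 1.04 ± 0.19 on the log2 scale (limma adjusted p = 0.00391). This is a fold of 2.06 between group means taken on that scale, and Mrps21 kept its call in all 22 alternative settings. Mrpl33, a small large-subunit protein with a bacterial relative, had 499.6, 632 and 674 in 5-day co-cultures, 314, 281 and 476 in 3-day co-cultures and 337, 496 and 486 in monocultures. Its 5-day libraries were above all the others, and the 3-day and monoculture libraries overlapped. The difference between 5 and 3 days was 0.78 ± 0.22 (limma adjusted p = 0.0431). Mrpl20, the relative of a bacterial protein needed early in large-subunit assembly, had 463, 485 and 362 at 5 days, 206, 343 and 257 at 3 days and 369, 422 and 375 in monocultures. Here the 3-day libraries were below all the others, and the 5-day and monoculture libraries overlapped. Its difference was 0.72 ± 0.20 (limma adjusted p = 0.0402). Mrpl18, in the central protuberance, had 182, 167 and 165 at 5 days, 91.3, 119 and 117 at 3 days and 155, 157 and 145 in monocultures. The groups did not overlap, with 3-day co-cultures lowest and 5-day co-cultures highest. The difference was 0.65 ± 0.18 (limma adjusted p = 0.0382).

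Against monoculture, these 4 genes gave at 5 days 0.77 for Mrps21, 0.46 for Mrpl33, 0.16 for Mrpl20 and 0.17 for Mrpl18, and at 3 days -0.27, -0.32, -0.56 and -0.48 on the log2 scale. The genes were taken for their difference between the co-cultures. All 4 estimates were below 0 at 3 days and above 0 at 5 days, and of these 8 values Mrps21 at 5 days was the only one to pass against monoculture. Mrpl18 overlaps Tcp1, a gene of the cytosolic chaperonin, on the other strand, and Mrpl33 overlaps Rbks on the other strand and Gm43809 on its own. Among genes lower at 5 days than at 3 days, Mrpl24, at the exit tunnel, gave -0.64 ± 0.20 (limma adjusted p = 0.0703), Mrpl9 -0.61 ± 0.26 and Mrps27 -0.55 ± 0.29, and none passed. The call for Mrpl33, Mrpl20 and Mrpl18 was lost in 9, 10 and 9 of 22 alternatives. The count of higher genes was 1 without the first 3-day library, the first or second 5-day library or the third monoculture, and 2 without the second 3-day library, and the highest limma adjusted p over alternatives was 0.182 for Mrpl33, 0.138 for Mrpl20 and 0.118 for Mrpl18. Mrpl24 was called lower without the third 3-day library (0.039) or the first 5-day library (0.0443).

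The proteins that build, supply and regulate the mitochondrial ribosome were followed through lists. For scale, 24.0% of all tested genes were called at 5 days, 20.0% at 3 days and 6.91% between the co-cultures. Of the mitochondrial ribosomal proteins that carry other names, 5 were tested, and Chchd1, a small-subunit protein, was the only one called. Its normalised count was 256, 372 and 301 in 5-day co-cultures, 199, 203 and 278 in 3-day co-cultures and 127, 154 and 127 in monocultures, so that every co-culture library was above every monoculture. It rose by 1.17 ± 0.20 at 5 days (limma adjusted p = 0.000411), more than any Mrpl or Mrps gene, and by 0.72 ± 0.20 at 3 days (adjusted p = 0.0164). The 3-day call was lost without the third 3-day library (0.0716) or the first (0.0531) or the third (0.0626) monoculture.

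Among 23 tested assembly genes, 4 were higher and 0 lower at 5 days, 4 were higher and 1 lower at 3 days, and 0 were called between the co-cultures. Across all tested genes, 12.6% were higher and 11.4% lower at 5 days, and 10.6% and 9.37% at 3 days. Between the co-cultures 6.91% were called. Ddx28, an RNA helicase of large-subunit assembly, had 58.4, 55.0 and 68.7 in 5-day co-cultures, 58.1, 53.6 and 66.8 in 3-day co-cultures and 24.8, 28.4 and 33.4 in monocultures. The co-culture groups overlapped each other, and both were above the monocultures. Its log2 fold change was 1.05 ± 0.22 at 5 days and 1.02 ± 0.22 at 3 days (limma adjusted p = 0.00279 and 0.00414). Ngrn, which is needed to keep the large ribosomal RNA of mitochondria, gave 0.85 ± 0.22 and 0.89 ± 0.22 (adjusted p = 0.0102 and 0.009), and Rpusd4, a pseudouridine synthase that acts on that RNA, gave 1.02 ± 0.28 and 0.99 ± 0.28 (adjusted p = 0.0127 and 0.0177). Wbscr16, also known as Rcc1l, rose at 5 days by 0.83 ± 0.22 (adjusted p = 0.0112). The 3-day calls also held Mrm1, a methyltransferase of the large ribosomal RNA, at 0.85 ± 0.26, and Mettl17, a factor of the small subunit, which fell by 0.83 ± 0.25 (adjusted p = 0.0283 and 0.0252). Ddx28 kept both calls in all 22 alternatives, and Wbscr16 lost its call only with reads thinned to the shallowest library (0.0657). Ngrn lost its 5-day call without the second 5-day library (0.0591), and Rpusd4 lost its calls without the second monoculture (0.0728 at 5 days and 0.0969 at 3 days) and, at 3 days, without the third 3-day library (0.0507). Mrm1 lost its call without the second (0.083) or the third (0.0839) 3-day library or the second (0.127) or the third (0.0512) monoculture. Mettl17 lost its call without the third 3-day library (0.0572) or the first (0.0508), the second (0.0952) or the third (0.0813) monoculture. With thinned reads Mrm1 (0.0652) and Mettl17 (0.146) lost theirs as well, and Mettl17 also with DESeq2 (0.0534).

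Other steps of mitochondrial gene expression held few calls, against 24.0% of all tested genes called at 5 days and 20.0% at 3 days. Of 14 translation and messenger RNA factors, Slirp alone was called, with 178, 185 and 192 in 5-day co-cultures, 133, 149 and 182 in 3-day co-cultures and 75.5, 89.4 and 86.1 in monocultures. Slirp, which protects mitochondrial messenger RNAs together with Lrpprc, was above monocultures in every co-culture library. It rose by 1.14 ± 0.18 at 5 days and 0.87 ± 0.18 at 3 days (limma adjusted p = 0.000275 and 0.00317). None of 16 mitochondrial aminoacyl-tRNA synthetases was called at 5 days, and at 3 days 0 were higher and Sars2 was lower, at 21.6, 27.0 and 20.0 in 5-day co-cultures, 21.6, 18.1 and 5.6 in 3-day co-cultures and 36.5, 35.1 and 34.1 in monocultures. Its value fell by 1.35 ± 0.38 at 3 days (adjusted p = 0.0199), with the third 3-day library far below the others. Of 8 genes of mitochondrial DNA transcription and replication, 0 were called at 5 days, and Polg2, the accessory subunit of the mitochondrial DNA polymerase, was called at 3 days at 1.53 ± 0.48 (adjusted p = 0.0352) on 11.6, 14.6 and 27.8 normalised counts in 3-day co-cultures and 1.9, 6.2 and 10.3 in monocultures. Slirp kept both calls in all alternatives, whereas Sars2 lost its call without the third 3-day library (-0.80 on the log2 scale, adjusted p = 0.0679) or the second (0.0504) or the third (0.0513) monoculture, and Polg2 without the second (0.0684) or the third (0.144) 3-day library or the first (0.98 on the log2 scale, adjusted p = 0.158) or second (0.0583) monoculture. Polg2 also lost its call with thinned reads (0.124), only the compared groups (0.0616) or array weights (0.0542).

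Among 9 tested regulators of nuclear genes for mitochondria, Esrra, a nuclear receptor that binds such genes with PGC-1 coactivators, was called. Its normalised count was 194, 172 and 296 in 5-day co-cultures, 181, 180.3 and 192 in 3-day co-cultures and 118, 97.6 and 122 in monocultures, with all co-cultures above all monocultures. It rose by 0.94 ± 0.21 at 5 days and 0.72 ± 0.21 at 3 days (limma adjusted p = 0.00357 and 0.0222). The 3-day call was lost without the second (0.0566) or the third (0.0561) 3-day library or the second monoculture (0.0902). Nrf1, Yy1 and Gabpa, the DNA-binding subunit of GABP, are named because their motifs were searched above, and none of them passed in any comparison with all 9 libraries. Gabpa gave -0.77 ± 0.31 at 5 days (adjusted p = 0.0792). For Gabpa the normalised counts were 37.7, 21.4 and 63.7 in 5-day co-cultures, 36.5, 36.9 and 39.0 in 3-day co-cultures and 69.3, 62.0 and 62.3 in monocultures, so the 3-day libraries were all below the monocultures and the third 5-day library fell among them. Without that library Gabpa gave -1.15 at 5 days and was called lower (adjusted p = 0.00918), and without the second 5-day library it gave -0.39, with adjusted p of 0.00918 to 0.361 over all alternatives.

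**Figure D4:**
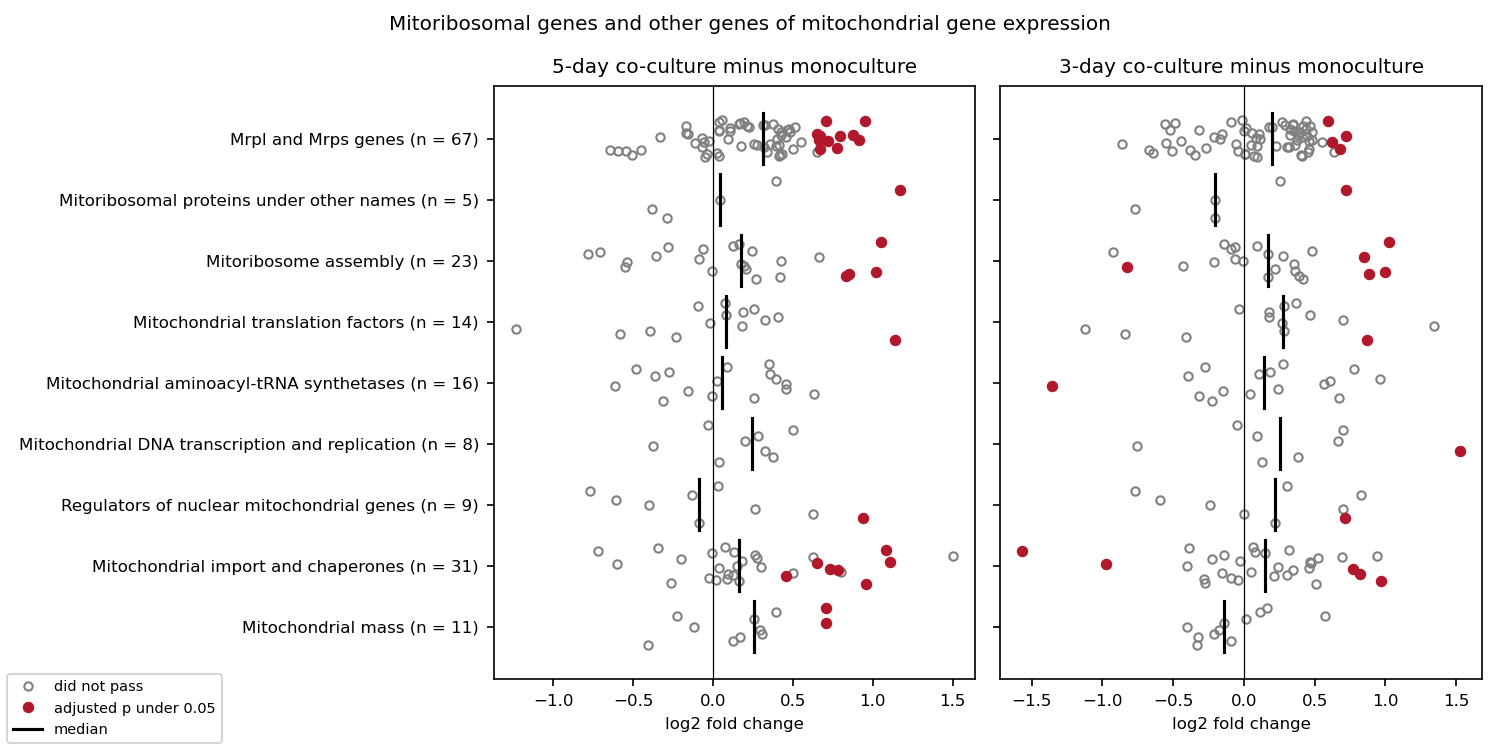
Log2 fold change (horizontal axis) of each tested gene by list (rows), in 5-day co-culture minus monoculture on the left and 3-day co-culture minus monoculture on the right; filled red points had a limma adjusted p under 0.05, open grey points did not, and the black bar is the median of the list. The Mrpl and Mrps row has a median of 0.31 at 5 days and 0.20 at 3 days, and no red point of that row lies below 0, whereas at 3 days the assembly, synthetase and import rows each hold red points below 0.

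Of 31 genes of mitochondrial import, processing and chaperones, 7 were higher and 0 lower at 5 days, 3 were higher and 2 lower at 3 days, and 2 were higher and 2 lower at 5 days than at 3 days. Across all tested genes, 12.6% were higher and 11.4% lower at 5 days, and 10.6% and 9.37% at 3 days. Between the co-cultures the shares were 3.20% and 3.71%. Timm17a, of the inner-membrane translocase, had 429, 528 and 397 in 5-day co-cultures, 264, 285 and 312 in 3-day co-cultures and 168, 221 and 239 in monocultures, without overlap between groups. It rose by 1.11 ± 0.19 at 5 days and by 0.64 ± 0.19 between 3 and 5 days (limma adjusted p = 0.00037 and 0.047). Tomm7, of the outer-membrane translocase, rose by 1.08 ± 0.19, and Pmpcb, of the peptidase that removes import signals, by 0.96 ± 0.18, both at 5 days (adjusted p = 0.00061 and 0.00115). The matrix protease Lonp1 had 301, 379 and 377 at 5 days, 683, 634 and 533 at 3 days and 339, 312 and 291 in monocultures. The 3-day libraries of Lonp1 were above all the others, with 0.97 ± 0.17 at 3 days and -0.81 ± 0.17 at 5 against 3 days (limma adjusted p = 0.000823 and 0.00975). The matrix chaperone Hspa9 gave 0.82 ± 0.17 and -0.73 ± 0.17, while the import receptor Tomm20 fell by 1.57 ± 0.30 at 3 days (adjusted p = 0.00163). Of 11 genes used as a measure of mitochondrial mass, 2 were higher at 5 days and 0 lower, namely Vdac1 at 0.71 ± 0.16 and the phosphate carrier Slc25a3 at 0.70 ± 0.22, and 0 were called at 3 days. Both were also called higher at 5 days than at 3 days, Slc25a3 at 0.84 and Vdac1 at 0.55 on the log2 scale. Timm17a, Tomm7, Pmpcb and Vdac1 at 5 days and Lonp1, Hspa9 and Tomm20 at 3 days kept their calls in all 22 alternatives. The other 4 import genes called higher at 5 days, Hspe1, Pam16, Timm17b and Timm50, lost theirs in 12, 5, 4 and 3 of them, each also without the second 5-day library (adjusted p = 0.0906, 0.0538, 0.0614 and 0.0549). Slc25a3 lost its 5-day call without the second (0.152) or the third (0.0725) 5-day library or the first (0.101) or second (0.068) monoculture. Thinned reads cost Slc25a3 that call as well (0.0599). Between the co-cultures, Timm17a lost its call without any 1 of the 6 co-culture libraries (0.0525 to 0.171) or the second (0.0559) or the third (0.0585) monoculture, Lonp1 without the second 3-day (0.052) or first 5-day (0.0535) library, and Hspa9 without the first 3-day (0.0523) or the third 5-day (0.0639) library. Timm17a also lost that call with thinned reads (0.0757), quantile scaling (0.0893) or only the compared groups (0.05115). In that comparison Tomm7, called at 0.76, lost its call in 6 of 22 alternatives, Slc25a3 in 4 and Vdac1 in 15.

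Other ribosomal and respiratory families are given for scale. Across all tested genes, 12.6% were higher and 11.4% lower at 5 days, and 10.6% and 9.37% at 3 days. Of 34 Nduf genes of respiratory complex I, 14 were higher and 0 lower at 5 days, with a median log2 fold change of 0.48, and 0 were called at 3 days, with a median of 0.20. Of 74 tested genes of the cytosolic ribosome, 15 were higher and 4 lower at 5 days, with a median of 0.23, and 4 were higher and 2 lower at 3 days, with a median of 0.17. The mitochondrial ribosomal protein genes, with medians of 0.31 and 0.20, lay between those families at 5 days, and the differences between families were not tested.

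The 69 genes were spread over 17 chromosomes of mm10 in GENCODE M21, where all of them had a position. A protein-coding gene started on the opposite strand within 1000 bases upstream for 15 of them, or 21.7%, against 1071 of 10019 tested coding genes, or 10.7%. None of these 15 was among the 16 genes of the 67 called in any comparison, and 32.4% of all tested genes were called in any. Head-to-head pairs whose starts overlap are outside this definition, among them the called gene Mrpl46 with Mrps11. The called share among all tested genes with such a partner was not computed. Of the 15 partners 13 were tested, and 4 of them were called in any comparison. These 4 are named for their calls: Mitd1, 66 bases from Mrpl30, rose by 1.47 at 5 days and 1.27 at 3 days, and Psma2, 75 bases from Mrpl32, rose by 0.77 at 5 days. Ncapd2, 100 bases from Mrpl51, fell by 1.42 at 5 days on the log2 scale, and the synthetase gene Sars2 lies 172 bases from Mrps12. In the annotation 13 of the 69 genes overlap another gene on their own strand and 31 overlap one on the other strand. These include Mrpl45 with Gm11594, Mrpl13 with Mtbp and Mrps22 with Gm37637 on the other strand, and Mrps24 with Urgcp on its own.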

How the data were processed

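Messenger RNA 3′ ends were sequenced in 9 libraries of sorted mouse fibroblasts, 3 per group. The authors deposited 1 table of normalised read counts, a signal per gene, for 11931 genes. Per the submitters' processing notes bcl2fastq, STAR 2.4.2a, HTSeq and mm10 were used; the annotation, strand setting, gene filter and scaling method are not given in the sources used here. Values were whole multiples of 1 read, and 99.87% to 100% of values per library came out whole within 0.051, which recovered 1048471 to 3567326 reads per library. Counting error alone is covered by the intervals on shares.

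Genes were tested with limma 3.58.1 with a variance trend (R 4.3.3) on log2(normalised count + 1), with all 9 libraries in 1 model and without a replicate term, on genes with at least 5 in at least 3 libraries, and a Benjamini-Hochberg threshold of 0.05 over 10639 genes. It was checked on simulated data. Results were recomputed with a pseudocount of 0.5 or 5, with every gene kept or only those averaging 20 or more, with median-of-ratios, TMM or quantile scaling, with a replicate block, only the compared groups or array weights, with edgeR 4.0.16 quasi-likelihood and DESeq2 1.42.0 on the whole reads, after thinning to the shallowest library, and without each library in turn. Positions are from GENCODE M21 and promoters from RefSeq on GRCm38.p6.

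The members and lists were chosen with earlier results of these data known. Members with values are, per comparison, the 8 largest called changes in each direction with a mean of at least 10, the 3 largest changes where fewer than 3 were called, the Mrps18 genes and those that failed the filter; from each role and pathway list up to 3 called genes by adjusted p, or the gene with the highest mean where none was called. Some genes that this rule took from the lists, mostly ones not called, are not reported here. Mrps11, Mrpl34, Nrf1, Yy1, Gabpa, Mrps14, Mrps6, Mrpl23 and the divergent partners were named after their values were seen.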

Additional observations from a re-analysis of the deposited data

Results flagged for a closer look

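In 4 genes the change against monoculture differed between 5-day and 3-day co-culture. Because both changes are taken against the same monocultures, the difference equals the contrast of the co-culture groups, which was tested with limma over all genes. It was 1.04 on the log2 scale for Mrps21 (adjusted p = 0.00391), 0.78 for Mrpl33 (adjusted p = 0.0431), 0.72 for Mrpl20 (adjusted p = 0.0402) and 0.65 for Mrpl18 (adjusted p = 0.0382), each higher in 3 of 3 5-day libraries than in all 3-day libraries. Mrps21 kept its call in all 22 alternatives, and over the alternatives the adjusted p reached 0.182 for Mrpl33, 0.138 for Mrpl20 and 0.118 for Mrpl18. The causes of these differences were not tested.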

How the results depend on the processing

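Of 1934 values of named genes under 22 alternatives, 1722 kept their direction and side of the threshold, 168 lost the call, 30 gained one and 14 changed sign. At 5 days against monoculture, thinning gave 7 higher genes, 1 lower and a median of 0.19; the lower count was 1 with only the compared groups, 2 with array weights and 1 with DESeq2. With 1 library left out, 7 to 14 were higher, 0 to 1 lower, and the median was 0.22 to 0.31. At 3 days, array weights gave 14 higher and 4 lower and thinning 2 and 2; 1 was lower with no filter, with the replicate block and with only the compared groups, and 1 to 5 were higher and 0 to 2 lower with 1 library left out. Array weights gave the second 3-day library 2.225, against 0.57 and 0.548 for the others of its group. Between the co-cultures, 2 were higher with quantile scaling, only the compared groups and edgeR, 1 with thinning and 1 to 4 with 1 library left out; 1 was lower with array weights, and 0 to 1 with 1 left out. All genes called there numbered 735, 1124 with array weights, 471 with thinning and 323 to 739 with 1 left out. Values that changed sign were all uncalled. Mrps18a gave -0.0029 at 3 days, -0.0274 at 5 days and -0.0245 between the co-cultures with thinning, and -0.0467 to 0.2095 and -0.0337 to 0.2225 at 3 days and between the co-cultures with 1 library left out. Between the co-cultures Mrps18c gave -0.18 with array weights, -0.0374 with edgeR, -0.0356 with DESeq2, -0.1195 with thinning and -0.1068 to 0.2007 with 1 left out, and Mrps24 -0.232 to 0.0438. The cause of these shifts was not tested, except that thinning leaves fewer reads and leaving out a library fewer samples. With the replicate block, 12 genes were higher and 0 lower at 5 days, 5 and 1 at 3 days and 4 and 0 between the co-cultures. After removal of each gene's group mean, same-numbered libraries of different groups correlated at -0.114 to 0.233. Differently numbered ones correlated at -0.298 to 0.323. The ranges overlapped, so these values do not decide whether the numbers pair the samples. Median-of-ratios, TMM and quantile scaling moved the median log2 fold change of all tested genes by at most 0.019. Depth limits genes with few reads.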

Other observations

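Mrps14, of the small subunit, had 6.3, 7.5 and 5.0 normalised counts in 5-day co-cultures, 0.0, 3.5 and 5.6 in 3-day co-cultures and 5.6, 3.4 and 5.1 in monocultures. Its estimate between 5 and 3 days was 1.22 ± 0.61 on the log2 scale, above that of any called gene of the family, and it did not pass (limma adjusted p = 0.256).

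Mrps6, the relative of a bacterial small-subunit protein, had 304, 333 and 266 in 5-day co-cultures, 277, 308 and 337 in 3-day co-cultures and 241, 233 and 442 in monocultures. The third monoculture was above every other library and the other two monocultures were below them all, and no comparison passed (limma adjusted p = 0.927 at 5 days and 0.862 at 3 days).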
